A study of Homo sapiens with 4 samples.

Results

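FOXO transcription factors and nodes of the insulin and phosphoinositide 3-kinase (PI3K) pathway were examined gene by gene and probe by probe. The 9 genes were listed by name (FOXO1, FOXO3, FOXO4, IRS1, IRS2, PIK3IP1, PIK3R1, PIK3CA and AKT1), and every probe annotated to them was taken. Of the 9, 8 had at least 1 probe with a gene name, 17 probes in all, out of 20046 named genes and 48107 probes on the array. PIK3CA, the gene of the catalytic subunit alpha of PI3K, was not analysed here because no probe was named for it. The cells were H23, an established line from a human non-small cell lung cancer, and the labels give 2 samples overexpressing green fluorescent protein (GFP) as the control and 2 overexpressing SOX7, a SOXF transcription factor. No source used here states the vector, the time after its introduction or whether a group was 1 clone or a pool. PolyA RNA from nearly confluent cells was read on Illumina HumanHT-12 v4 BeadChips, and the deposited values are log2 intensities normalized to a common distribution across the 4 arrays. The design also lists H1299 and PC14 cells, not analysed here.

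Insulin and insulin-like growth factors activate receptor tyrosine kinases that phosphorylate the docking proteins IRS1 and IRS2. These recruit PI3K, a dimer of a regulatory subunit such as the product of PIK3R1 and a catalytic subunit such as that of PIK3CA, and its lipid product brings the kinase AKT1 to the membrane. PIK3IP1 encodes a transmembrane protein that binds PI3K and restrains it. AKT phosphorylates FOXO1, FOXO3 and FOXO4, which then leave the nucleus and lose their activity on genes of cell cycle arrest, oxidant defence, autophagy and apoptosis, among them BCL2L11 (BIM). Activity of these proteins is set largely by phosphorylation, which an RNA array does not measure.

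PIK3IP1, FOXO4 and IRS2 were lower in SOX7 cells, and none of the other 5 genes measured passed the threshold. PIK3IP1 fell 1.59-fold, FOXO4 1.45-fold and IRS2 1.30-fold. With the brightest probe of each gene, 3 of 8 genes fell and 0 rose at a limma adjusted p under 0.05, and at an unadjusted p under 0.05 the counts were also 3 and 0. Among all 12804 genes tested, 18.8% passed, 9.83% lower and 8.98% higher, and 32% had an unadjusted p under 0.05. The median change of the 8 genes was −0.16 (log2, SOX7 minus control), against 0.0035 over all genes tested. All 8 genes had passed the filter on low signals, a mean at or above the median of all probes (6.25), so none was lost to it. Whether the paired samples of a group were grown as independent cultures is not stated, so each p-value reflects the spread of these samples alone, possibly a technical one. In bulk RNA, a lower level in every cell and fewer cells with a high level cannot be told apart.

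The PIK3IP1 probe (ILMN_1719986; gene at chr22:31281593-31292534, GRCh38.p14) read 7.69 and 7.49 in the control arrays and 6.98 and 6.87 in the SOX7 arrays (log2 intensity). Both SOX7 arrays lay below both control arrays, with a gap larger than the distance between the arrays of either group. The means were 7.59 ± 0.14 and 6.92 ± 0.080 (SD, n = 2), a difference of −0.67 (SE 0.098, 95% confidence interval −0.88 to −0.45, limma adjusted p = 6.09e-04). Only 1.48% of the genes tested had a lower log2 change. Left out in turn, the 4 arrays gave changes between −0.77 and −0.57, each past the threshold.

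FOXO4, the FOXO factor encoded on the X chromosome, had a single probe (ILMN_1712095; gene at chrX:71095851-71103532). Its log2 intensity was 7.89 and 7.77 in the control arrays and 7.33 and 7.26 in the SOX7 arrays. The groups did not overlap, and the spread within each pair was small beside the distance between the pairs. The difference was −0.54 (7.83 ± 0.088 against 7.29 ± 0.048, SD, n = 2; SE 0.090, 95% confidence interval −0.73 to −0.34, limma adjusted p = 0.00152), lower than that of all but 2.76% of genes tested. It passed without each array in turn, with changes from −0.60 to −0.48.

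IRS2, the docking protein gene, also had 1 probe (ILMN_2083469; gene at chr13:109752695-109786583), which read 7.26 and 7.12 in the control arrays and 6.87 and 6.75 in the SOX7 arrays. The SOX7 arrays were again both lower, by a narrower margin than for PIK3IP1 or FOXO4. The difference was −0.38 (7.19 ± 0.096 against 6.81 ± 0.085, SD, n = 2; SE 0.093, 95% confidence interval −0.59 to −0.18, limma adjusted p = 0.0139). This call did not hold without control replicate 1 (−0.32, adjusted p = 0.0749) or without SOX7 replicate 2 (−0.32, adjusted p = 0.0957). Each of these 3 genes rests on 1 probe, so no second probe checks its change. No detection p-values were used, so how far signals near the array median, such as IRS2 in SOX7 cells, lie above background is unknown.

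**Figure D1:**
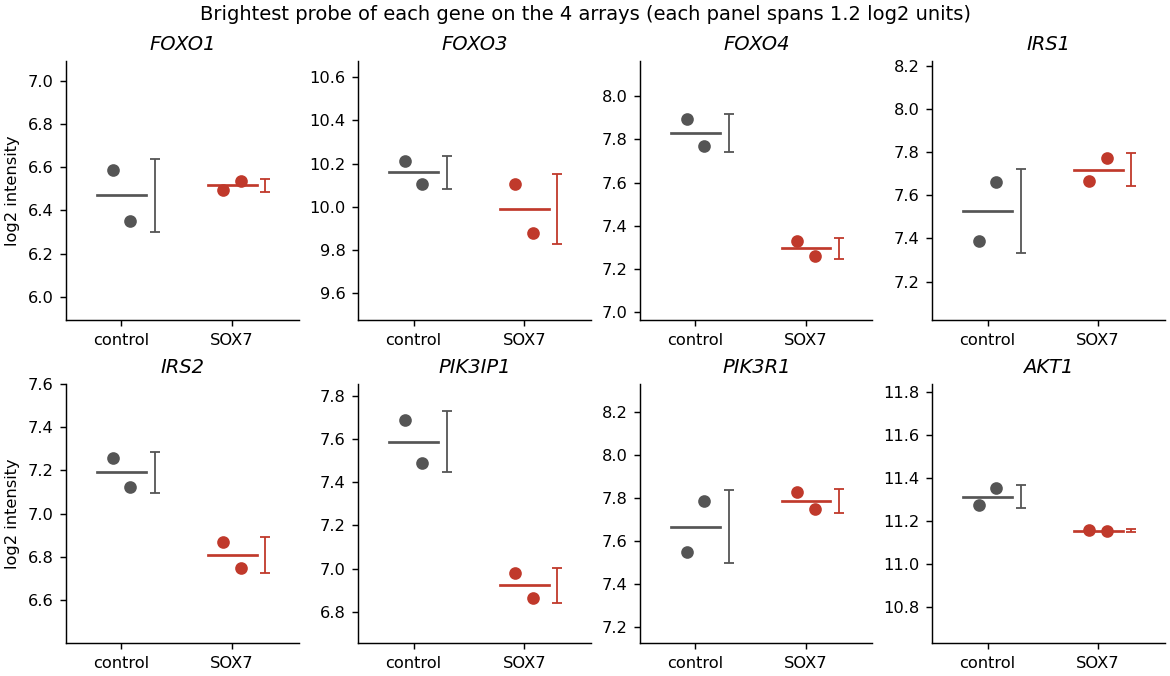
Log2 intensity of the brightest probe of each of the 8 genes on the 4 arrays (points), with the group mean (line) and SD (bar, n = 2), control in grey and SOX7 in red. The SOX7 points lie below both control points for FOXO4, IRS2, PIK3IP1 and AKT1, above them for IRS1, and overlap or touch them for FOXO1, FOXO3 and PIK3R1.

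The other FOXO factors did not pass. FOXO1 (ILMN_1738816; chr13:40555667-40666641) read 6.59 and 6.35 in the control arrays and 6.50 and 6.54 in the SOX7 arrays. The SOX7 values lay between the control values, and the difference of 0.047 had a 95% confidence interval of −0.17 to 0.26 (limma adjusted p = 0.793). Its sign turned without control replicate 2 (−0.072), and its level was close to the array median. FOXO3 (chr6:108559825-108684774) had 4 probes that went different ways. The brightest, ILMN_1681703, read 10.21 and 10.11 in the control arrays and 10.11 and 9.88 in the SOX7 arrays, and differed by −0.17 (95% confidence interval −0.39 to 0.050, limma adjusted p = 0.277). Its groups touched at one value. The second, ILMN_1844692, read 8.31 and 8.41 against 8.27 and 8.16, a difference of −0.14 with groups that did not overlap (limma adjusted p = 0.498 over all 30113 probes with 1 gene).

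The other 2 FOXO3 probes lay below the array median. ILMN_1712515 differed by 0.039, and ILMN_1687940 read 5.54 and 5.70 in the control arrays and 5.90 on both SOX7 arrays, which gives a difference of 0.28 that did not pass (limma adjusted p = 0.134). The pair of bright probes was thus lower and the pair of dim probes higher, none past the threshold, and the mean of all 4 differed by 0.0026. FOXO3B, a near-identical copy of FOXO3 on another chromosome, may share probes with it, which was not tested.

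IRS1, the other docking protein gene, had 1 probe (ILMN_1759232; chr2:226731312-226799820). It read 7.39 and 7.66 in the control arrays and 7.67 and 7.77 in the SOX7 arrays. The SOX7 arrays were both higher, SOX7 replicate 1 barely above control replicate 2, and the 2 control arrays differed more than the group means did. The difference was 0.19 (95% confidence interval −0.036 to 0.42, limma adjusted p = 0.235). IRS1 and IRS2 thus differed from control in opposite directions, of which that of IRS2 passed and that of IRS1 did not; the difference between the 2 genes was not tested.

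PIK3R1, which encodes the regulatory subunits p85-alpha, p55-alpha and p50-alpha from alternative starts, had 5 probes (chr5:68215756-68301821). The brightest, ILMN_1760303, read 7.55 and 7.79 in the control arrays and 7.83 and 7.75 in the SOX7 arrays, with overlapping groups and a difference of 0.12 (95% confidence interval −0.098 to 0.34, limma adjusted p = 0.448). The other 4 probes differed by 0.11, −0.013, −0.049 and −0.14, and of these the first alone lay above the array median. No PIK3R1 probe passed, and the lowest limma adjusted p over all probes was 0.482, for ILMN_2289433.

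AKT1 (chr14:104769349-104795748) had 3 probes, all above the array median. ILMN_2388507 read 11.28 and 11.35 in the control arrays and 11.16 and 11.15 in the SOX7 arrays. The groups did not overlap, and the difference of −0.16 did not pass (95% confidence interval −0.35 to 0.033, limma adjusted p = 0.243). ILMN_2410909 read 10.13 and 10.12 against 10.05 and 10.09, a difference of −0.056, and the dim ILMN_1748661 differed by 0.037.

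Over all 17 probes, each taken on its own with no filter on signal, 3 passed, those of PIK3IP1 (limma adjusted p = 0.00167), FOXO4 (0.00482) and IRS2 (0.0402). Over all 30113 probes with 1 gene, 6.7% passed, 3.57% lower. Groups did not overlap for 5 of the 8 genes, against 58.5% of all genes tested, and for 9 of the 17 probes, against 47.7% of all probes with 1 gene, shares close to the background. Of the 17 probes, 12 lay at or above the median of all probes. In this fit over all probes, IRS2 lost its call without each of the 4 arrays (adjusted p from 0.0548 to 0.242) and FOXO4 without SOX7 replicate 2 (0.0698), which left PIK3IP1 as the 1 probe past the threshold without that array.

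**Figure D2:**
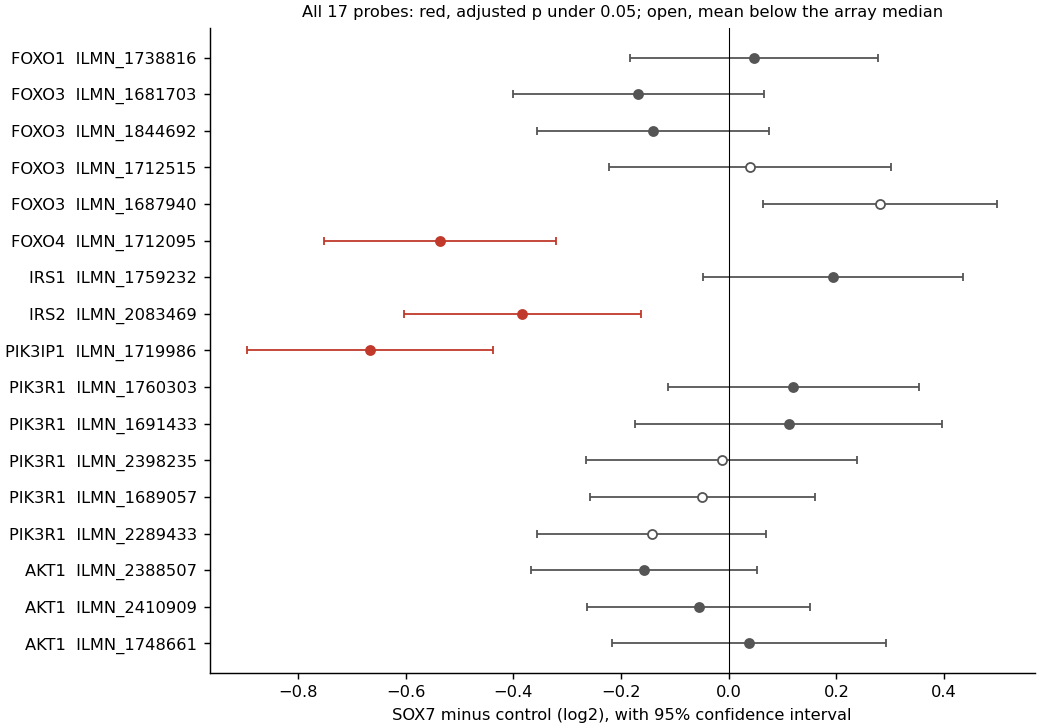
Difference between SOX7 and control arrays (log2) of all 17 probes with 95% confidence intervals from limma, with probes past an adjusted p of 0.05 over 30113 probes in red and probes below the array median as open circles. The intervals of the FOXO4, IRS2 and PIK3IP1 probes lie below 0 and that of FOXO3 probe ILMN_1687940 above it, although the last did not pass.

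The changes of the 3 genes that fell were set beside those of their chromosomal neighbours, to see whether their surroundings differed as well. The median log2 change in a window of tested genes around PIK3IP1 was −0.022, around FOXO4 −0.025 and around IRS2 0.049. With these medians removed, the 3 genes still passed, with changes of −0.64 for PIK3IP1, −0.51 for FOXO4 and −0.43 for IRS2 (limma adjusted p of at most 0.00770). Around IRS1 the neighbours had a median of 0.12, and the IRS1 difference became 0.070. Around PIK3R1 the median was 0.094, and its difference became 0.027.

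**Figure D3:**
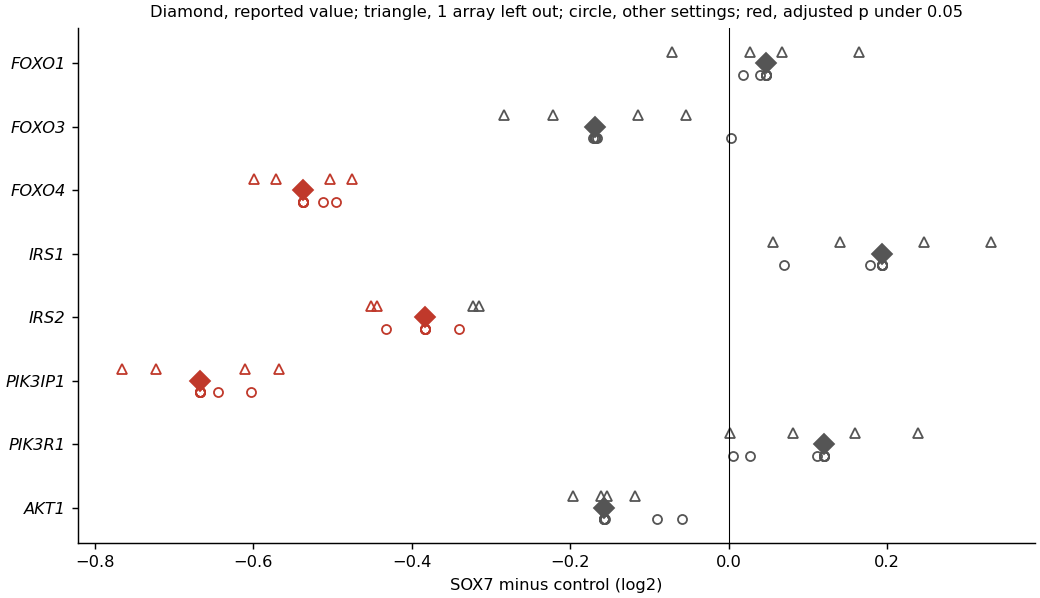
Difference between SOX7 and control (log2) of the 8 genes as reported (diamond), with 1 array left out (triangles) and under other settings (circles), in red where the limma adjusted p was under 0.05. FOXO4 and PIK3IP1 passed in every fit shown, IRS2 in all but 2, and the other 5 genes in none.

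**Figure D4:**
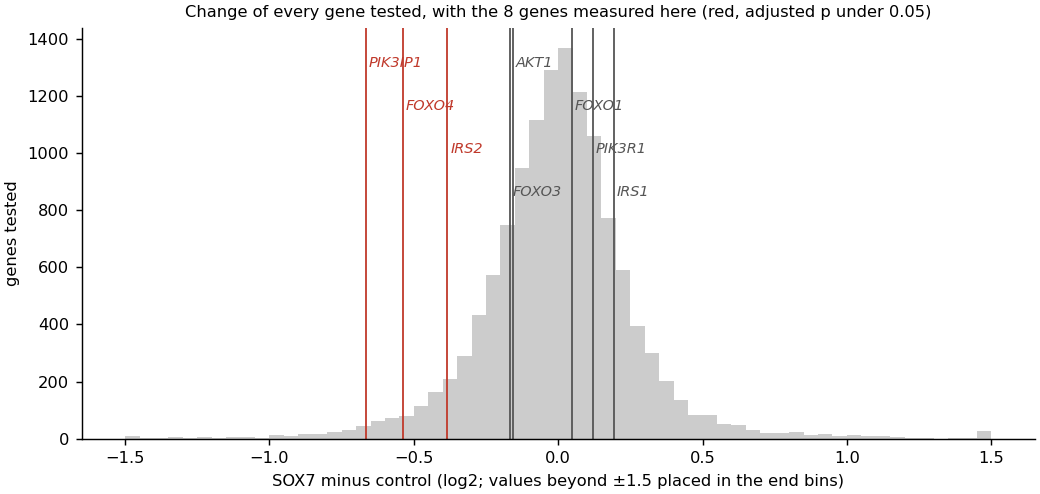
Histogram of the log2 difference between SOX7 and control for all 12804 genes tested, with lines at the 8 genes. PIK3IP1, FOXO4 and IRS2 (red) lie in the lower tail, where 1.48%, 2.76% and 5.87% of the genes tested had lower changes.

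The sequences upstream of the 3 genes that fell are shown because the genes moved the same way and 1 of them is itself a FOXO factor. They are the 250 bases before the outermost annotated start, from RefSeq on GRCh38.p14, in the direction of transcription. PIK3IP1 lies on the minus strand (window chr22:31292535-31292784), FOXO4 on the plus strand (chrX:71095601-71095850) and IRS2 on the minus strand (chr13:109786584-109786833). Capitals mark AAACA or its complement TGTTT, the core of forkhead sites, and ACAAT, a core bound by SOX factors.
PIK3IP1: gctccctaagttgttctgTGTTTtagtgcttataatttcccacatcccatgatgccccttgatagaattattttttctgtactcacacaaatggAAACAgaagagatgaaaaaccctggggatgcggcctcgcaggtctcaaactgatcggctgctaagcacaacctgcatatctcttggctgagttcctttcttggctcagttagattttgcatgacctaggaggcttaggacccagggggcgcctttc
FOXO4: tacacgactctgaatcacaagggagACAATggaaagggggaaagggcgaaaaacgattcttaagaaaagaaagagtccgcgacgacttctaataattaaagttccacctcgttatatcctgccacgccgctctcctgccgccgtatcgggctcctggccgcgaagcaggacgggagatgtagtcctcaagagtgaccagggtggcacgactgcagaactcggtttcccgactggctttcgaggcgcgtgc
IRS2: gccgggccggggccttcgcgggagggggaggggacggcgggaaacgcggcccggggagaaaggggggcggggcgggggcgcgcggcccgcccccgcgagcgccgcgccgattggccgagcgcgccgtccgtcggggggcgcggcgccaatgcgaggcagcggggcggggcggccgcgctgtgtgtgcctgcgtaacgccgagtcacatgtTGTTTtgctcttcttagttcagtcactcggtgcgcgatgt

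Both strands were searched for AAACA, for the full FOXO element GTAAACA, which contains it, and for the SOX cores ACAAT and ACAAAG. The PIK3IP1 window held AAACA at 2 places and the IRS2 window at 1, 36 bases before the start. The FOXO4 window held none and was the 1 window of the 3 with the SOX core ACAAT. Of 35116 such windows across the genome, 40.4% held AAACA and 24.6% held the SOX core ACAAT. The full GTAAACA, found in 2.98% of windows, was in none of the 3, nor was ACAAAG, found in 13.7%. Among the 17 windows of all 9 genes, the full element occurred in 1, that of PIK3CA. The 3 windows also differed in base composition. GC content was 46.8% for PIK3IP1, 54.4% for FOXO4 and 76.4% for IRS2, with 4, 21 and 42 CpG dinucleotides, against medians of 58.0% and 11 over all windows. A match is a description of the letters and shows no binding.

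The rest of the pathway was read from 6 lists chosen with earlier results of these data known. Together they held 132 genes, of which 110 were tested, and 18 rose and 4 fell, 22 in all beside the background of 18.8% (8.98% higher and 9.83% lower). At an unadjusted p under 0.05, 32 were higher and 10 lower, against 2009 higher and 2089 lower of all 12804 genes tested. The count was 14 with no filter on signal and 11 without SOX7 replicate 2, fits in which fewer genes passed in all (1775 of 20046 and 1529 of 12790). AKT2 and GSK3A lay below the filter.

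Upstream of PI3K, 4 of 17 genes of receptors, ligands and adaptors tested rose and 0 fell (6 and 0 at an unadjusted p under 0.05), beside 8.98% of all genes higher and 9.83% lower, with a median log2 change of 0.097. GRB14 (0.57, limma adjusted p = 9.12e-04) and GRB10 (0.54, 0.00206), adaptors that bind the insulin receptor and restrain its kinase, rose 1.48-fold and 1.45-fold. GAB2, a docking protein that recruits PI3K (0.40), and IGFBP2, which binds insulin-like growth factors (0.32, named after its value was seen), rose less. Of the other 3 GRB14 probes, 1 above the array median differed by 0.24 without passing and 2 below it by 0.0015 and −0.13, and the mean of the 4 probes did not pass (0.17, adjusted p = 0.135). Of the other 3 GRB10 probes, 1 rose by 0.53 and 2 differed by 0.20 and 0.062 without passing, and the mean of the 4 was 0.33 (adjusted p = 0.0131). The other 2 GAB2 probes, below the array median, differed by −0.17 and 0.052. The calls ended for GAB2 without SOX7 replicate 1 (adjusted p = 0.0579), and for IGFBP2 without control replicate 1 (0.180), without SOX7 replicate 2 (0.219), with neighbouring genes removed (0.192) and with no filter on signal (0.0816). The insulin receptor gene INSR (0.060, adjusted p = 0.714) and IGF1R (0.10, adjusted p = 0.485) did not pass.

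Among all genes tested, 8.98% passed higher and 9.83% lower. Of 11 other PI3K subunits and phosphoinositide phosphatases tested, 1 rose and 0 fell (3 and 0 unadjusted), with a median of 0.11. This was PIK3C2A, a class II PI3K (0.34, adjusted p = 0.0178), a call lost for the mean of its probes (0.0763), without control replicate 2 (0.0810), without SOX7 replicate 1 (0.0556) and without SOX7 replicate 2 (0.0891). Its second probe differed by 0.074. The catalytic subunit gene PIK3CB differed by 0.081 (adjusted p = 0.617).

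Of 13 kinases and regulators at the level of AKT and SGK, 2 rose and 1 fell (4 and 2 unadjusted), with a median of 0.021. The shares over all genes tested were 8.98% higher and 9.83% lower. TRIB3, a pseudokinase that binds AKT and is induced by ATF4, rose 1.86-fold (0.90, adjusted p = 3.33e-05). TRIB1, a related pseudokinase, fell by 0.40 on the log2 scale (adjusted p = 0.00717). PPP2R2A, a regulatory subunit of the phosphatase PP2A, rose by 0.34, a call lost without control replicate 1 (adjusted p = 0.101) and without SOX7 replicate 2 (0.130). PDPK1, the kinase that activates AKT, differed by 0.019 (adjusted p = 0.921).

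Of 19 mTOR complex genes and AKT substrates, 2 rose and 2 fell (3 and 2 unadjusted), with a median of −0.0036. The shares over all genes tested were 8.98% higher and 9.83% lower. DEPTOR, which binds and inhibits mTOR, fell by 0.51 (adjusted p = 0.00313), and its second probe differed by −0.30 (limma adjusted p = 0.100 over all probes). DDIT4, an inhibitor of mTOR complex signalling through TSC, fell by 0.33 (adjusted p = 0.0373). MAPKAP1, a subunit of mTOR complex 2 (0.33, adjusted p = 0.0398), and GSK3B, a kinase that AKT inhibits (0.27, adjusted p = 0.0482), rose. Without 1 array the call ended for DDIT4 (0.133 without control replicate 1, 0.242 without SOX7 replicate 2), for MAPKAP1 (0.149 and 0.253 without the same arrays) and for GSK3B without each of the 4 (0.0692 to 0.206). The other MAPKAP1 probes differed by 0.34 and 0.064, and the mean of its probes did not pass (0.0559). None of these 3 passed with neighbouring genes removed or with no filter on signal.

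Of 18 FOXO partners and modifiers, 4 rose and 0 fell (6 and 1 unadjusted), with a median of 0.11. Of all genes tested, 8.98% passed higher and 9.83% lower. SFN (0.48, adjusted p = 0.00499) and YWHAE (0.39, 0.0106) encode members of the protein family that binds FOXO after AKT has phosphorylated it and keeps it in the cytoplasm. The other 5 genes of that family tested did not pass and differed by −0.17 (YWHAB), −0.14 (YWHAH), −0.069 (YWHAQ), −0.035 (YWHAG) and −0.013 (YWHAZ). PRMT1, a methyltransferase that modifies FOXO1, rose by 0.31 (0.0363), and SKP2, a ubiquitin ligase subunit that targets FOXO1 and p27 (named after its value was seen), by 0.29 (0.0390). A second YWHAE probe differed by 0.063, and the call ended for the mean of both (adjusted p = 0.0791) and without SOX7 replicate 2 (0.0849). PRMT1 lost its call without control replicate 2 (0.205), SOX7 replicate 1 (0.128) or SOX7 replicate 2 (0.104), as did SKP2 (0.193, 0.124 and 0.121), and neither passed with neighbouring genes removed or with no filter on signal (0.0785 and 0.0842). The mean of the SKP2 probes did not pass either (0.0718). The other SKP2 probes differed by 0.36 and 0.093.

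Of 33 FOXO target genes tested, 5 rose and 1 fell, a share close to the background of 18.8%, with a median log2 change of 0.10. At an unadjusted p under 0.05, 10 were higher and 5 lower, 15 in all, against 32% of all genes tested. The list includes genes that FOXO factors repress, so counts by direction do not measure FOXO activity. CCND2, the gene of cyclin D2, which FOXO factors repress, rose 2.04-fold (1.03, limma adjusted p = 1.09e-05; second probe 0.81). S1PR1, a sphingosine phosphate receptor, rose by 0.47 (0.00251; second probe 0.78) and GABARAPL1, an autophagy protein, by 0.44 (0.00448). CAT, which encodes the hydrogen peroxide scavenger catalase, fell by 0.44 (0.00615), with its second probe at −0.42. CTDSP2, a phosphatase (0.30, adjusted p = 0.0364), and CDKN1B, the gene of the cell cycle inhibitor p27 (0.29, adjusted p = 0.0492), rose and were named after their values were seen. Neither held: CDKN1B lost its call without each of the 4 arrays (0.0533 to 0.256), and its second probe differed by −0.20. CTDSP2 lost it without control replicate 2 (0.159), SOX7 replicate 1 (0.0671) or SOX7 replicate 2 (0.174), with neighbouring genes removed (0.217) and with no filter on signal (0.0790).

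The 9 targets with an unadjusted p under 0.05 that did not pass, named after their values were seen, gave differences of both signs. Lower in SOX7 cells were BCL6 (−0.26, adjusted p = 0.0558), CCNG2 (−0.27, 0.0686), MAP1LC3B (−0.24, 0.0955) and RBL2 (−0.28, 0.0521). Higher were FBXO32 (0.25, 0.0667), ATG12 (0.23, 0.106), CDKN2B (0.22, 0.127), CCND1 (0.23, 0.0806) and BCL2L11 (0.27, 0.0769). The other 2 BCL2L11 probes differed by 0.065 and −0.059. With 1 array left out, the BCL2L11 change ranged from 0.17 to 0.37. With neighbouring genes removed it was 0.13 (limma adjusted p = 0.413). Its control mean of 6.23 lay below the filter value of 6.25, so BCL2L11 was tested only through its higher SOX7 arrays. The number of targets that fell was 5 when genes below the 75th percentile were left out, 4 with the replicate block and with a trend and robust prior, and 3 with the offset and for the mean of probes. The number that rose was 6, 6, 7, 5 and 5 in the same order, and 3 without control replicate 2, SOX7 replicate 1 or SOX7 replicate 2. CDKN1A, the gene of p21, differed by −0.16 (adjusted p = 0.250) and SOD2, a mitochondrial superoxide dismutase, by 0.14 (0.294).

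**Figure D5:**
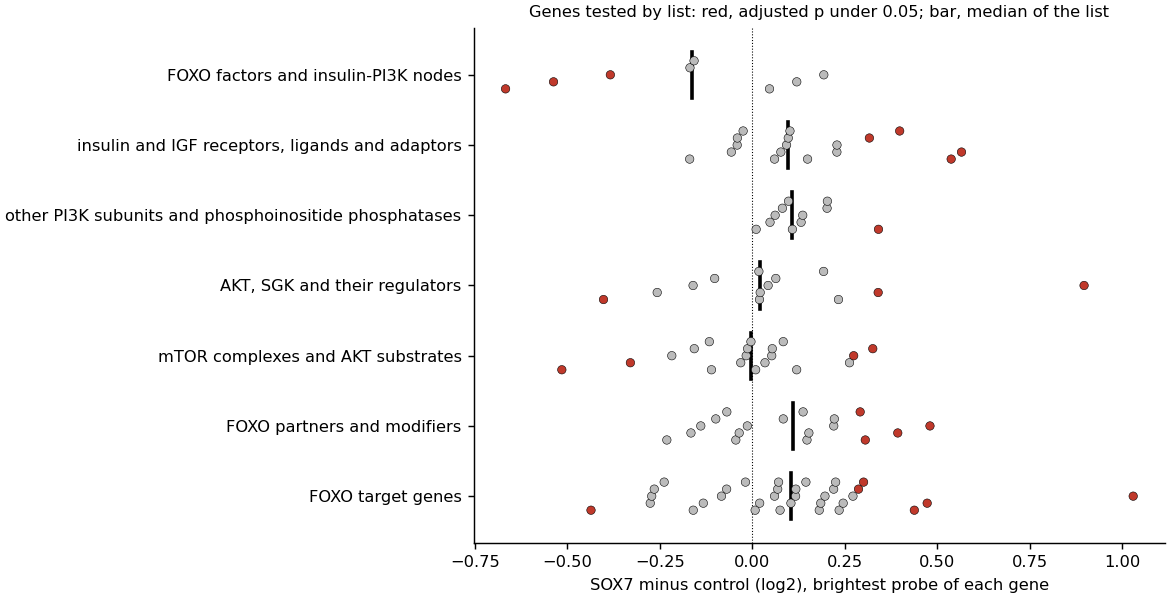
Log2 difference between SOX7 and control for the genes tested in each list, 1 point per gene (brightest probe), red where the limma adjusted p was under 0.05, with a bar at the median of the list. The 8 genes in the top row have a median of −0.16, and the lists below have medians between −0.0036 and 0.11.

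The genes with the pattern closest to PIK3IP1, the gene with the smallest p, were ITGA3, DNPH1 and ABR. Likeness was the Euclidean distance between mean-centred log2 values over the 4 arrays, 0.0378, 0.0544 and 0.0625. Their log2 changes were −0.68, −0.70 and −0.69. For each, as for PIK3IP1, control replicate 1 read above control replicate 2 and SOX7 replicate 1 above SOX7 replicate 2. The choice by distance on the same arrays favours both likenesses, so they are no separate result.

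The 4 arrays had the same median signal, which normalization to a common distribution sets, so this is no check of their quality. SOX7 itself had 2 probes, both above the array median. The brighter read 6.18 and 6.45 in the control arrays and 6.53 and 6.78 in the SOX7 arrays, and the 0.34 between the means did not pass (limma adjusted p = 0.0583). The other differed by 0.0039 (limma adjusted p = 0.992 over all probes), and the mean of both by 0.17 (0.233). Where the probes lie relative to the introduced sequence is unknown, so they do not check the labels. The brighter probe passed without control replicate 2 (0.00876) and without SOX7 replicate 1 (0.0404). Of 12 lung epithelial markers, 5 lay at or above the array median. KRT18 rose by 0.45 (8.57 to 9.01, limma adjusted p = 0.00453). KRT8 (0.22, 8.11 to 8.33, adjusted p = 0.136) and EPCAM (0.14, 0.329) were higher without passing. MUC1 (−0.17, 10.28 to 10.11, adjusted p = 0.262) and KRT7 (−0.028, 0.879) were lower without passing. CDH1, NKX2-1, NAPSA and the surfactant genes SFTPB and SFTPC were among those below the median. The 12 epithelial markers summed to 11.22 to 11.35 in the control and 11.32 to 11.33 in the SOX7 arrays (log2). The summed level of 10 fibroblast markers was 10.19 to 10.24 in the control and 9.90 to 10.01 in the SOX7 arrays (log2), and that of 9 blood cell markers 11.19 to 11.37 and 10.97 to 11.04, so both sums were lower in the arrays in which PIK3IP1, FOXO4 and IRS2 were lower. The members did not move one way. Among the fibroblast markers COL3A1 fell (−1.18, limma adjusted p = 3.35e-05) while LUM (0.52, 0.00156) and ACTA2 (0.37, 0.0241) rose. The control mean of LUM, 6.22, lay below the filter value of 6.25, so LUM was tested only through its higher SOX7 arrays. Among the blood cell markers CD68 fell (−1.04, 5.07e-05) while CD14 rose (0.64, 4.82e-04), so 1 gene tested in each list fell. Below the filter and not tested, THY1 read 6.31 and 6.34 in the control and 5.83 and 5.68 in the SOX7 arrays. FAP, also untested, read 6.43 and 6.29 against 6.12 and 6.13. Untested blood cell markers that read higher were CD3D (5.95 and 6.10 against 6.25 and 6.24) and HBA1 (5.89 and 5.98 against 6.25 and 6.22). In these lists PDGFRA, PDGFRB and PTPRC lay below the median, and the part of other cells in the results was not tested. Endothelial markers summed to 9.37 in both control arrays and to 9.29 to 9.36 in the SOX7 arrays, and CDH5, PECAM1, KDR and VWF lay below the median. The number of arrays limits the precision.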

How the data were processed

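The authors deposited log2 intensities of 48107 probes on 4 arrays. Sorted values differed between arrays by at most 0.000683, so the arrays had been quantile normalized; no source used here states the software or the background correction. Probes were named with the platform's annotation (30113 with 1 gene, 8 with several, 17986 with none), and 30074 matched RefSeq GRCh38.p14.

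Each gene was represented by the probe with the highest mean, and genes below the median of all probe means (6.251) were left out. SOX7 and control were compared with limma 3.58.1 (R 4.3.3; statmod 1.5.0), as a two-sided test with p-values adjusted by Benjamini-Hochberg across the 12804 genes (called under 0.05), and again across the 30113 probes. The code was run on data simulated from the fitted model itself, with a smaller share of changed genes than passed here. Such a run checks the code and not the changes reported. Members and lists were chosen with earlier results of these data known. The text names each member and, per list, up to 3 called genes per direction with the smallest p, other genes being said to be named after their values were seen. Protein sequences were not used here. Same-numbered arrays deviated with a correlation of −0.0173, so their numbers were not taken as pairs. Alternatives were other filters, an offset of 16, the mean of probes, a trend and robust prior, the replicate block, other normalizations, leaving out each array, and removing the median change of neighbouring genes.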

Additional observations from a re-analysis of the deposited data

How the results depend on the processing

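Of 498 refits of the genes named, 420 kept their direction and side of the threshold, 54 lost a call, 22 gained one and 2 turned sign. The 2 were FOXO3 for the mean of its probes (0.0026) and FOXO1 without 1 array, which ranged from −0.072 to 0.17. Of 148 refits of single probes, 136 kept both, 5 lost a call and 7 turned sign, none of them past the threshold. The latter, with 1 array left out, ranged from −0.12 to 0.34 for ILMN_1691433, −0.15 to 0.22 for ILMN_1712515, −0.072 to 0.17 for ILMN_1738816, −0.13 to 0.21 for ILMN_1748661 and −0.14 to 0.11 for ILMN_2398235. With 1 array left out, 1529 to 1984 genes passed in place of 2408, 11 to 18 pathway genes in place of 22, 2 to 3 of the 8 genes and 1 to 2 of the 17 probes in place of 3; such fits have 1 array in a group, assumed to vary like the other group. The probe fit kept PIK3IP1 without each array, and lost FOXO4 without SOX7 replicate 2 (adjusted p = 0.0698). With no filter on signal, 14 pathway genes passed, from more genes tested. With the replicate block, 2834 genes passed, 3 of the 8 among them (IRS2 adjusted p = 0.00344), and BCL2L11 (0.0497) and SOX7 (0.00906) passed, the latter also with a trend and robust prior (0.0487); the numbers are not known to pair the arrays. IRS2 and FOXO1 were not tested at the 75th percentile filter, where 2 of the genes passed. Signal over background could not be judged without detection values.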
